A study of Mus musculus with 4 samples.

Results

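The genes that flank Pdcd1 on chromosome 1 and Cx3cr1 on chromosome 9 were examined in microglia, the resident macrophages of the brain. They were the protein-coding genes whose annotated start lay from 89 to 99 Mb on chromosome 1 or from 115 to 124.5 Mb on chromosome 9. Pdcd1 and Cx3cr1 themselves were left out, as were 11 genes on chromosome 9 whose names begin with Ccr, Slc, Rab, Rpl, Rps or Trim. This gave 113 of the 20308 genes in the deposited tables (0.556%), with 48 around Pdcd1 and 65 around Cx3cr1. Among the genes in these tables, the choice used position, annotated type and name. The tables leave out genes with too few counts, so such genes of the windows did not enter. Of the 113 genes, 104 passed the filter on low counts and were tested, 45 on chromosome 1 and 59 on chromosome 9.

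RNA had been taken from microglia isolated from mice at postnatal day 11, in a study of PD-1 and the pruning of brain vessels. The groups were 2 libraries labelled Pd1cKO-Cx3 (replicates 2 and 3), a conditional knockout of the PD-1 gene, and 2 libraries from Pd1fl/fl mice (replicates 1 and 2), which carry that gene flanked by recombination sites. The label Pd1cKO-Cx3 does not spell out the driver behind "Cx3", where it was inserted, or whether the Pd1fl/fl mice carried it. The labels also give no strain background and do not say that the replicates came from separate animals, and the spread that the tests rest on may be technical.

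As background, a floxed allele or a driver gene placed in a locus is inherited together with the chromosome around it. Neighbouring genes can therefore come from a different parental chromosome in carriers and non-carriers, and an inserted cassette can also alter the expression of genes close by. Genes around a targeted locus are for that reason often compared with distant genes. PD-1, the product of Pdcd1, is an inhibitory receptor best known from T cells. Cx3cr1 encodes the fractalkine receptor, a surface receptor of microglia whose locus is often used to drive recombinase expression in these cells. The comparison below asks whether the neighbours of both loci differed more between the genotype labels than genes far from them.

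The 4 libraries held 14258420 and 15486984 counts in libraries labelled Pd1cKO-Cx3 and 15908954 and 14854625 in Pd1fl/fl. The microglial markers Csf1r, Tmem119, P2ry12, Aif1 and Sall1 together summed to 35130 to 37440 CPM, the counts scaled to a common library total, in the libraries labelled Pd1cKO-Cx3 and 41190 to 41510 CPM in Pd1fl/fl. Markers of other cell types were present at lower levels. The summed level was higher in the libraries labelled Pd1cKO-Cx3 without overlap for 5 of 7 such lists, those of endothelium, mural cells and fibroblasts, border-associated macrophages, neurons and lymphocytes. The lymphocyte list summed to 4.65 to 10.1 CPM in libraries labelled Pd1cKO-Cx3, against 0 to 0.135 CPM in Pd1fl/fl. In bulk RNA, fewer cells of a type and less RNA per cell cannot be told apart. Pd1fl/fl replicate 1 stood apart in sex-linked expression, with 13374 counts of Xist against 0 in the other libraries and 0 counts of Ddx3y against 1891 to 2064. Without it, 0 flanking genes were called and the median absolute log2 fold change was 0.34 around Pdcd1 and 0.29 around Cx3cr1, against 0.37 for protein-coding genes of the other chromosomes.

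The targeted genes themselves were examined first. Pdcd1 (ENSMUSG00000026285) lies on chromosome 1 from 94038305 to 94052553 on the build GRCm38. Its reads numbered 179 and 154 in libraries labelled Pd1cKO-Cx3, against 0 and 43 in Pd1fl/fl. The count per gene was thus higher under the label of a knockout. It does not show which exons were read, and the knockout itself was not tested. Every direction below follows the labels. Its log2 difference of 2.95 ± 1.48 (SE) did not pass the test (edgeR adjusted p = 0.695). Leaving out Pd1fl/fl replicate 1 gave 1.94, and without Pd1fl/fl replicate 2 the remaining Pd1fl/fl library has 0 counts and gives no measured fold. Cx3cr1 (ENSMUSG00000052336, chromosome 9, 119901616 to 120069879) had 4658 and 4300 CPM in libraries labelled Pd1cKO-Cx3, against 11474 and 10264 CPM in Pd1fl/fl, and was lower with a log2 difference of -1.29 ± 0.07 (SE, edgeR adjusted p = 0.0251). The call of Cx3cr1 held in all 4 fits that left out a library. Both genes enter only as the points from which distance is measured, from annotated 5′ end to annotated 5′ end.

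No flanking gene passed the test between the genotype labels. With edgeR's quasi-likelihood test and Benjamini-Hochberg adjustment over all 15097 genes tested, 0 of 104 flanking genes were called, where 6 of all genes were (0.0397%), 3 higher (0.0199%) and 3 lower (0.0199%). The smallest adjusted p among the flanking genes was 0.535. DESeq2 on the same genes also called 0 of 104, against 233 of 15097 genes overall (1.54%). At an unadjusted p under 0.05 in edgeR, 6 of 104 flanking genes (5.77%) stood out, against 8.09% of all genes tested. Of these, 3 were higher, against 4.97% of all genes, and 3 were lower, against 3.12%. Around Cx3cr1 it was 5 of 59 genes (8.47%), against 6.68% of distant protein-coding genes of chromosome 9. Around Pdcd1 it was 1 of 45 (2.22%), against 6.53% of distant ones of chromosome 1. The differences between these shares were not tested. The call also came to 0 flanking genes under each of the 10 alternative settings that covered scaling, filter, tool and each library left out. A gene that misses the threshold is not shown to be equal in both groups. In data simulated for this comparison over 15097 genes, the test found 19% of 2-fold and 55% of 4-fold changes. The simulation gave every gene the spread between replicates fitted for its level, so the shares found in these data can differ.

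The groups of libraries did not overlap for 39 of 104 flanking genes (37.5%), against 40.1% of all genes tested. Among these, 17 were higher in the libraries labelled Pd1cKO-Cx3 (16.3%, against 20.8% of all genes) and 22 were lower (21.2%, against 19.3%). Around Pdcd1 the counts were 6 higher and 11 lower of 45, and around Cx3cr1 they were 11 higher and 11 lower of 59. Around Pdcd1, 13.3% were higher and 24.4% lower, against 22.5% and 15.7% of distant protein-coding genes of chromosome 1. Around Cx3cr1, 18.6% were higher and 18.6% lower, against 19.1% and 17.5% of distant ones of chromosome 9. The differences between these shares were not tested.

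The median size of the differences was close to that of distant genes. The median absolute log2 fold change was 0.29 for the 45 genes around Pdcd1 and 0.27 for the 59 around Cx3cr1. It was 0.29 for 689 distant protein-coding genes of chromosome 1, 0.28 for 629 distant ones of chromosome 9 and 0.29 for 11045 on the other chromosomes. Over all 15097 genes tested it was 0.32. The signed median was 0.08 for the 104 flanking genes and 0.01 over all genes tested, and 59.6% of flanking genes had a positive fold change, against 50.7% of all genes. These counts and medians are a description.

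**Figure D1:**
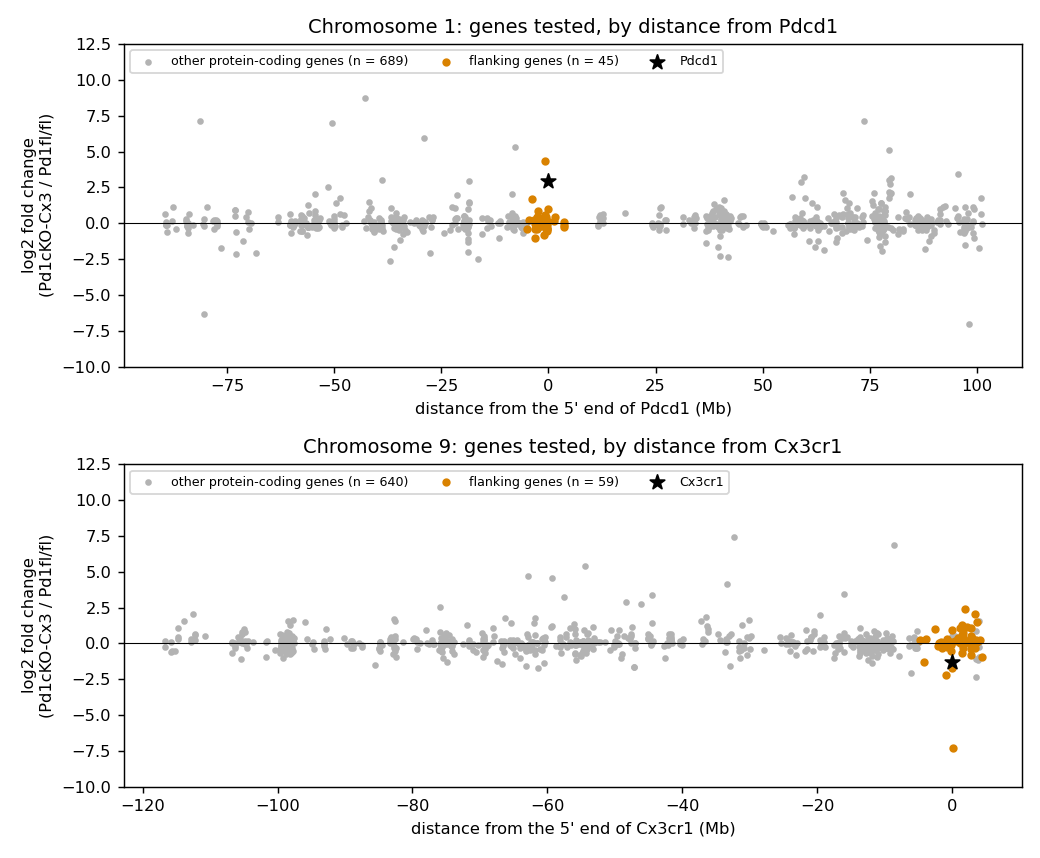
Each point is a tested protein-coding gene, placed by the distance of its 5′ end from that of Pdcd1 (upper panel) or Cx3cr1 (lower panel) in Mb and by its log2 fold change (libraries labelled Pd1cKO-Cx3 over Pd1fl/fl). Flanking and distant genes both lie on either side of 0. An absolute log2 fold change of at least 1 was reached by 6.67% of flanking genes around Pdcd1, against 14.2% of distant ones. Around Cx3cr1 it was reached by 20.3%, against 10% of distant ones. The grey points of chromosome 9 include the 11 genes left out by name.

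The level of a gene sets much of this spread, so the comparison was repeated within ranges of mean level. For flanking genes at 50 CPM or more, the median absolute log2 fold change was 0.11 over 24 genes, against 0.17 over 3723 protein-coding genes of the same range. From 20 to 50 CPM it was 0.26 over 27 flanking genes, against 0.23. From 5 to 20 CPM it was 0.30 over 33 flanking genes, against 0.36. Under 5 CPM it was 0.91 over 20 flanking genes, against 0.74 over 2954 genes. The flanking genes were thus below the protein-coding genes in 2 ranges of level and above them in the other 2.

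An absolute log2 fold change of at least 1 was found for 15 of 104 flanking genes (14.4%), against 15% of all genes tested and 12.4% of all protein-coding genes tested. The genes around Cx3cr1 supplied 12 of them, 20.3% of the 59 tested there, while distant protein-coding genes of chromosome 9 reached it in 10% and the genes around Pdcd1 in 6.67%. Of these 12 genes around Cx3cr1, 8 had a mean under 5 CPM and the other 4 lay from 5 to 20 CPM. Within these ranges the share around Cx3cr1 was still above that of protein-coding genes. It was 61.5% of 13 genes under 5 CPM, against 38.5%, and 25% of 16 genes from 5 to 20 CPM, against 9.93%. These shares rest on few genes with low counts, and the difference was not tested.

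Distance within the windows gave no steady order. Around Pdcd1 the median absolute log2 fold change was 0.36 for 8 genes within 0.5 Mb, 0.41 for 10 genes from 0.5 to 1 Mb, 0.21 for 9 genes from 1 to 2 Mb and 0.29 for 18 genes from 2 to 5 Mb. Around Cx3cr1 it was 0.53 for 7 genes, 0.12 for 9 genes, 0.31 for 17 genes and 0.27 for 26 genes in the same ranges. The ranges within 2 Mb hold under 20 genes each, and their medians rest on single genes. Genes 5 to 20 Mb away had medians of 0.23 on chromosome 1 and 0.25 on chromosome 9.

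**Figure D2:**
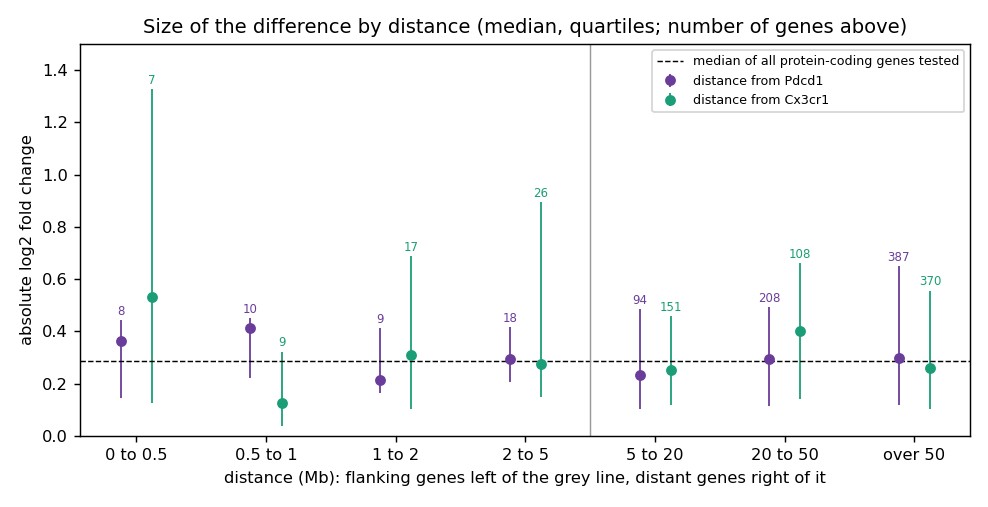
Median absolute log2 fold change (points) with lower and upper quartiles (bars) by distance from Pdcd1 or Cx3cr1 in Mb, with the number of genes above each bar and the median of all protein-coding genes tested as a dashed line. The highest median, 0.53, is that of the 7 genes within 0.5 Mb of Cx3cr1, whose quartiles are also the widest apart.

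The spread between replicates was of the same size as the difference between genotype labels. The median absolute log2 ratio over the 104 flanking genes, on log2 of CPM plus 0.5, was 0.33 between the library labelled Pd1cKO-Cx3 replicate 2 and Pd1fl/fl replicate 1 and 0.30 between the same library and Pd1fl/fl replicate 2. For the library labelled Pd1cKO-Cx3 replicate 3 it was 0.42 against Pd1fl/fl replicate 1 and 0.34 against Pd1fl/fl replicate 2. Within a genotype label it was 0.31 between the 2 libraries labelled Pd1cKO-Cx3 and 0.37 between the 2 Pd1fl/fl libraries. The mean over pairs was 0.35 across genotype labels and 0.34 within them. Over all protein-coding genes tested it was 0.36 across and 0.32 within, and over all genes tested 0.40 across and 0.36 within.

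**Figure D3:**
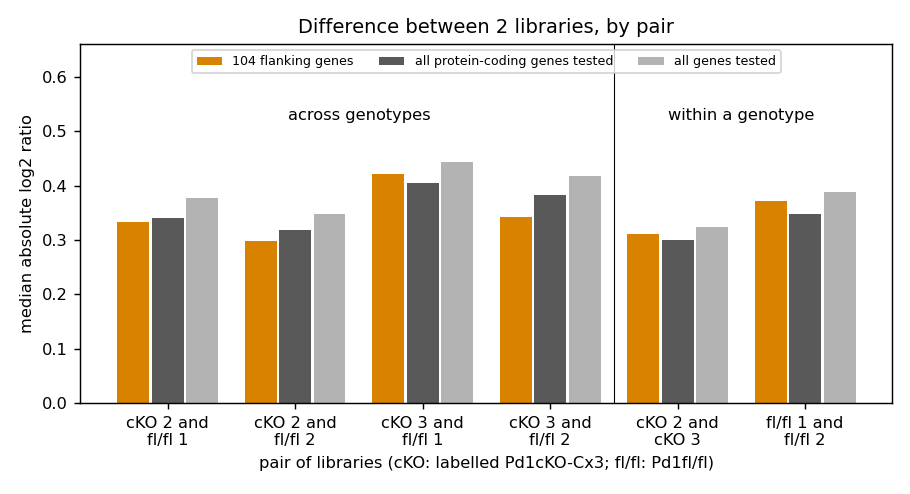
Bars give the median absolute log2 ratio between 2 libraries over the 104 flanking genes tested (orange), all protein-coding genes tested (dark grey) and all genes tested (light grey), for the 4 pairs across genotype labels and the 2 pairs within one. The flanking genes lie below all genes tested in each of the 6 pairs, but above the protein-coding genes in 3 of them.

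Of the 16 nearest tested neighbours, 4 on each side of each locus, 9 were without overlap (56.2%, against 40.1% of all genes tested), 4 higher and 5 lower, and none passed the test. Neu4 encodes a sialidase that removes sialic acid from glycans and starts 32.1 kb from the 5′ end of Pdcd1. It had 8.77 and 6.07 CPM in libraries labelled Pd1cKO-Cx3, against 3.39 and 4.11 CPM in Pd1fl/fl. The groups did not overlap, as for Pdcd1 itself, but the log2 difference of 0.97 ± 0.51 (SE) did not pass (edgeR adjusted p = 0.718). D2hgdh, which encodes the mitochondrial D-2-hydroxyglutarate dehydrogenase, had 5.47 and 5.42 CPM in libraries labelled Pd1cKO-Cx3, against 11.4 and 4.44 CPM in Pd1fl/fl, and the groups overlapped. Ing5, a subunit of histone acetyltransferase complexes, had 38.7 and 50.1 CPM, against 48.6 and 46.7 CPM. Dtymk, the thymidylate kinase needed for dTTP synthesis, had 79.7 and 119 CPM, against 75.9 and 102 CPM. The groups overlapped for Ing5 and Dtymk.

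On the other side of Pdcd1 the first tested gene lay 1.26 Mb away. This was Fam174a, with 11.1 and 17.8 CPM in libraries labelled Pd1cKO-Cx3, against 14.6 and 11.04 CPM in Pd1fl/fl. St8sia4, which encodes a polysialyltransferase, had 29.9 and 21.4 CPM, against 18.7 and 19.1 CPM, with a log2 difference of 0.43 ± 0.28 (SE, edgeR adjusted p = 0.777). The groups did not overlap for St8sia4, and both libraries labelled Pd1cKO-Cx3 were the higher ones. D1Ertd622e had 53.0 and 54.8 CPM in libraries labelled Pd1cKO-Cx3, against 59.5 and 71.8 CPM in Pd1fl/fl. Gin1, a gene related to retrotransposon integrases, had 10.4 and 10.1 CPM, against 10.4 and 12.2 CPM. Both lay lower in the libraries labelled Pd1cKO-Cx3 without overlap on TMM-scaled CPM, Gin1 by a narrow margin, by log2 fold changes of -0.29 ± 0.19 and -0.15 ± 0.34 (SE), within the error of the test.

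The nearest neighbours of Cx3cr1 included genes inside its annotated span, which on GRCm38 covers 5 flanking genes in whole or in part. Wdr48 encodes a cofactor of deubiquitinating enzymes. It had 44.4 and 37.4 CPM in libraries labelled Pd1cKO-Cx3, against 69.96 and 47.5 CPM in Pd1fl/fl, lower without overlap at a log2 difference of -0.53 ± 0.26 (SE, edgeR adjusted p = 0.683). Gorasp1, a Golgi stacking protein gene, had 31.6 and 38.4 CPM, against 34.3 and 40.4 CPM. Exons of Wdr48 and Gorasp1 lie on opposite strands and share bases, 14.9% of the exon bases of Wdr48 and 32.1% of those of Gorasp1, so reads there cannot be assigned without strand. Csrnp1, a gene for a nuclear protein, had 40.5 and 53.1 CPM, against 31.8 and 54.9 CPM, and its groups overlapped.

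Low counts stood behind the remaining close neighbours on that side. Xirp1, an actin-binding protein gene of striated muscle, had 28 and 0 counts in libraries labelled Pd1cKO-Cx3, against 56 and 45 counts in Pd1fl/fl. Its fitted log2 fold change was -1.74 ± 1.72 (SE, edgeR adjusted p = 0.887). It was -0.74 with replicate 3 of the label Pd1cKO-Cx3 left out, and with replicate 2 left out that group has 0 counts. Ttc21a had 0 and 0 counts, against 0 and 29 counts, and was not tested. Its count in Pd1fl/fl replicate 1 was not listed and was set to 0, and it can be at most 4.

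Mobp lies 79.8 kb beyond the 5′ end of Cx3cr1 and encodes a myelin protein of oligodendrocytes. It had 61.4 and 21.8 CPM in libraries labelled Pd1cKO-Cx3, against 27.2 and 16.6 CPM in Pd1fl/fl. The groups overlapped, and its log2 difference of 0.91 ± 0.53 (SE, edgeR adjusted p = 0.756) was -0.02 with replicate 2 of the label Pd1cKO-Cx3 left out. The 7 oligodendrocyte lineage markers summed to 1131 and 396 CPM in libraries labelled Pd1cKO-Cx3, against 693 and 327 CPM in Pd1fl/fl, the same order of libraries as for Mobp. None of the 7 was at 0 in any library, and 2 of them were higher without overlap, against 20.8% of all genes tested. The part of these markers in the level of Mobp was not tested.

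Myrip, which encodes a protein that links Rab27 and myosin, was read in one group alone. It had 0 and 0 counts in libraries labelled Pd1cKO-Cx3, against 21 and 18 counts in Pd1fl/fl. Against a floor of 3 counts per library it was at least 6.26-fold lower, a limit that covers counting error only. The edgeR test did not call it (adjusted p = 0.535), and its mean level in Pd1fl/fl was 1.27 ± 0.08 CPM (SD, n = 2).

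Eif1b, a translation initiation factor gene, had 38.6 and 35.4 CPM in libraries labelled Pd1cKO-Cx3, against 35.0 and 31.2 CPM in Pd1fl/fl. Ctnnb1 encodes β-catenin, the effector of Wnt signalling and a partner of cadherins. It had 74.9 and 90.3 CPM, against 56.3 and 69.5 CPM, higher without overlap at a log2 difference of 0.38 ± 0.20 (SE, edgeR adjusted p = 0.703).

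**Figure D4:**
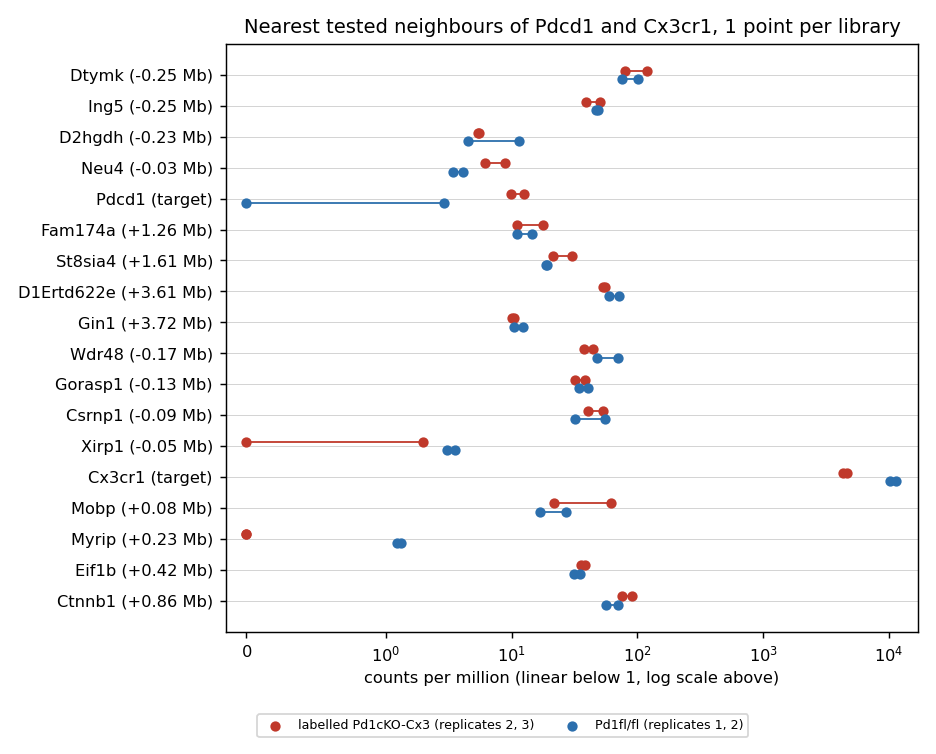
CPM in each library for the 4 nearest tested neighbours on each side of Pdcd1 and Cx3cr1 and for the targeted genes, in order of position, with the axis linear below 1 and logarithmic above. The lines join the 2 libraries of a group. Cx3cr1 stands far above its neighbours, and the groups do not overlap for 9 of the 16 neighbours, 4 higher and 5 lower.

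The 3 genes named next lie between Cx3cr1 and Ctnnb1 and were left out by name. Slc25a38, the first gene past the 5′ end of Cx3cr1, encodes the mitochondrial glycine carrier of haem synthesis. It had 576 and 756 counts in libraries labelled Pd1cKO-Cx3, against 395 and 326 counts in Pd1fl/fl, with a log2 difference of 0.92 ± 0.23 (SE, edgeR adjusted p = 0.4999). The ribosomal protein genes Rpsa and Rpl14 had log2 fold changes of 0.53 ± 0.17 and 0.50 ± 0.13 (SE, edgeR adjusted p = 0.542 and 0.4999). In all 3 the groups did not overlap, and none passed the test in edgeR or DESeq2. With all 11 such genes put back, 0 genes were called, 21 were higher without overlap in place of 17, and the median absolute log2 fold change around Cx3cr1 was 0.32 in place of 0.27, against 0.29 for protein-coding genes of the other chromosomes.

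Genes of innate and cytokine signalling were represented by 9 tested flanking genes, of which 0 passed. Without overlap, 2 lay higher and 1 lower (33.3%, against 40.1% of all genes tested), with a median log2 fold change of 0.17. Myd88, the adaptor shared by most Toll-like receptors and the IL-1 receptor, had 120 and 109 CPM in libraries labelled Pd1cKO-Cx3, against 139 and 88.4 CPM in Pd1fl/fl. Its log2 fold change was 0.00 ± 0.24 (SE), the sign of which turned with the scaling. Lrrfip1, which encodes a nucleic acid binding protein, had 135 and 112 CPM, against 123 and 126 CPM. Azi2, an adaptor of the kinase TBK1, had 68.6 and 79.6 CPM, against 82.7 and 84.2 CPM. Only Azi2 of these 3 was without overlap, lower by -0.18 ± 0.16 on the log2 scale (SE, edgeR adjusted p = 0.864).

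Of the TGF-β and Wnt signalling genes, 4 were tested and all had positive fold changes, with a median of 0.33 on the log2 scale, but 0 passed, and 2 were without overlap (50%, against 40.1% of all genes tested). Tgfbr2 encodes the type II TGF-β receptor, through which microglia receive a signal for their mature state. Per kilobase of exon it was the most abundant flanking gene, at 58.3 CPM per kb, far below Cx3cr1 at 1704 CPM per kb. It had 480 and 570 CPM in libraries labelled Pd1cKO-Cx3, against 562 and 298 CPM in Pd1fl/fl, and the groups overlapped. The log2 difference of 0.28 ± 0.29 (SE, edgeR adjusted p = 0.900) was -0.10 without Pd1fl/fl replicate 2 and 0.81 without Pd1fl/fl replicate 1. Limd1, a LIM domain scaffold gene that restrains Hippo kinases, had 30.6 and 10.01 CPM, against 3.08 and 6.73 CPM. It was higher without overlap, at 2.04 ± 0.67 on the log2 scale (SE), and did not pass (edgeR adjusted p = 0.542). Its higher library labelled Pd1cKO-Cx3, replicate 2, had most of the counts, and with that library left out the fold change was 1.02.

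Adhesion and matrix genes held 3 tested members, with 1 higher and 1 lower without overlap (66.7%, against 40.1% of all genes tested) and 0 called. Itga9 encodes the α9 integrin chain, a receptor for tenascin C and osteopontin. It had 76.4 and 78.9 CPM in libraries labelled Pd1cKO-Cx3, against 91.9 and 99.4 CPM in Pd1fl/fl, with a log2 difference of -0.31 ± 0.15 (SE, edgeR adjusted p = 0.680). Sned1, an extracellular matrix gene, had 29 and 37 counts, against 1 and 2 counts. The ratio of summed counts was 22.8, with an exact 95% binomial interval of 7.45 to 113. That interval covers counting error only and leaves out the spread between libraries. Sned1 did not pass the test (edgeR adjusted p = 0.535), and 19.6% of its exon bases overlap another gene. Col6a3, a collagen VI chain gene of fibroblasts, had 5.33 and 4.97 CPM, against 17.98 and 2.83 CPM, so that 1 Pd1fl/fl library decided its mean. The mural cell and fibroblast markers summed to 150 and 168 CPM in libraries labelled Pd1cKO-Cx3, against 74.9 and 36.0 CPM in Pd1fl/fl. Notch3 and Anpep were at 0 in at least 1 library. Higher without overlap were 5 of 7 markers, against 20.8% of all genes tested. The part of these markers in the levels of Sned1 and Col6a3 was not tested.

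Among 5 neuronal and oligodendrocyte genes 0 passed, and 1 was higher and 2 lower without overlap (60%, against 40.1% of all genes tested). Vipr1, a receptor gene for vasoactive intestinal peptide, had 22.7 and 26.3 CPM in libraries labelled Pd1cKO-Cx3, against 42.7 and 35.9 CPM in Pd1fl/fl. Its log2 fold change was -0.69 ± 0.24 (SE, edgeR adjusted p = 0.547), and it kept its sign in all 10 alternatives. Hes6, which encodes a basic helix-loop-helix repressor, had 42.2 and 48.6 CPM, against 56.2 and 64.2 CPM, at -0.42 ± 0.20 (SE, edgeR adjusted p = 0.673). Kif1a, a kinesin motor gene of axonal transport, had 54.7 and 24.8 CPM, against 37.5 and 22.4 CPM. The 5 neuronal markers summed to 53.9 and 30.8 CPM in libraries labelled Pd1cKO-Cx3, against 27.2 and 28.8 CPM in Pd1fl/fl. None of them was at 0 in any library, and their part in the level of Kif1a was not tested.

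Vesicle traffic and cytoskeleton genes had 0 of 13 called, 0 higher and 2 lower without overlap (15.4%, against 40.1% of all genes tested) and a median of 0.09 on the log2 scale. Fyco1, an adaptor for transport of autophagosomes and lysosomes, had 108 and 83.6 CPM in libraries labelled Pd1cKO-Cx3, against 83.2 and 96.3 CPM in Pd1fl/fl. Golga4, a golgin gene, had 59.7 and 77.5 CPM, against 63.5 and 63.5 CPM. Trak1, an adaptor for mitochondrial transport, had 34.7 and 66.2 CPM, against 37.0 and 61.3 CPM. For Trak1 the replicates of each group lay further apart than the group means, 50.5 ± 22.3 and 49.2 ± 17.2 CPM (SD, n = 2 each).

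Transcription, DNA repair and RNA genes gave 0 calls among 11, with 1 higher and 1 lower without overlap (18.2%, against 40.1% of all genes tested) and a median absolute log2 fold change of 0.11. Hdlbp, the RNA-binding protein vigilin, averaged 198 ± 22.9 CPM in libraries labelled Pd1cKO-Cx3 and 209 ± 29.8 CPM in Pd1fl/fl (SD, n = 2 each). Zfp445, a zinc finger gene with a known part in genomic imprinting, averaged 161 ± 19.7 CPM and 160.4 ± 17.3 CPM in the same groups of libraries, labelled Pd1cKO-Cx3 and Pd1fl/fl. Nktr, a cyclophilin-related gene, had 152 and 140 CPM in libraries labelled Pd1cKO-Cx3, against 137 and 172 CPM in Pd1fl/fl. The groups of all 3 genes overlapped.

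Metabolism, lysosome and mitochondria formed the largest list, with 19 tested genes, 0 called and 3 on either side without overlap (31.6%, against 40.1% of all genes tested). Acaa1a, a peroxisomal thiolase gene, had 182 and 184 CPM in libraries labelled Pd1cKO-Cx3, against 168 and 174 CPM in Pd1fl/fl, a log2 difference of 0.09 ± 0.12 (SE, edgeR adjusted p = 0.936). Its neighbour Acaa1b is a close copy, so that reads may be split between them. Lars2, the mitochondrial leucyl-tRNA synthetase gene, had 120 and 179 CPM, against 134 and 178 CPM. Atg4b, the protease that processes LC3 in autophagy, had 91.9 and 80.5 CPM, against 112 and 101 CPM, lower without overlap at -0.32 ± 0.16 (SE, edgeR adjusted p = 0.692). Abhd5, an activator of triglyceride breakdown, had 22.9 and 13.9 CPM, against 3.65 and 13.1 CPM, and the lowest library labelled Pd1cKO-Cx3 lay just above Pd1fl/fl replicate 2.

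Protein kinases, phosphatases and ubiquitin genes had 0 of 14 called, with 3 higher and 4 lower without overlap (50%, against 40.1% of all genes tested). Asb1, a substrate receptor gene of ubiquitin ligases, had 12.3 and 16.4 CPM in libraries labelled Pd1cKO-Cx3, against 8.93 and 7.001 CPM in Pd1fl/fl, at 0.84 ± 0.37 on the log2 scale (SE, edgeR adjusted p = 0.650). Ulk4, a pseudokinase gene, had 10.7 and 9.49 CPM, against 6.85 and 2.83 CPM. Capn10, a calpain gene, had 28.9 and 31.4 CPM, against 27.5 and 17.4 CPM. All 3 lay higher in both libraries labelled Pd1cKO-Cx3.

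On the lower side of this group stood Stk25, a kinase gene of the Golgi, with 30.0 and 36.1 CPM in libraries labelled Pd1cKO-Cx3, against 36.1 and 51.2 CPM in Pd1fl/fl. Ube2f, an enzyme gene of NEDD8 conjugation, had 74.7 and 77.2 CPM, against 97.3 and 82.0 CPM. Cops8, a subunit gene of the COP9 signalosome that removes NEDD8, had 72.4 and 95.8 CPM, against 72.2 and 73.5 CPM, and Ppp1r7, a regulator gene of protein phosphatase 1, had 78.5 and 95.4 CPM, against 83.2 and 81.3 CPM. On TMM-scaled CPM the groups did not overlap for Stk25 and Ube2f and overlapped for Cops8 and Ppp1r7. The 2 genes tested from the list of ion channels and pores were Ano7 and Ano10 of the anoctamin family. Their log2 fold changes were -0.43 ± 0.38 and 0.12 ± 0.23 (SE, edgeR adjusted p = 0.853 and 0.963). Both were without overlap, Ano7 lower and Ano10 higher (100%, against 40.1% of all genes tested).

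Outside these lists, 24 flanking genes were tested and 0 passed, with 3 higher and 7 lower without overlap (41.7%, against 40.1% of all genes tested). Ppp2r3d, a regulatory subunit gene of protein phosphatase 2A near the end of chromosome 9, had 22.1 and 18.5 CPM in libraries labelled Pd1cKO-Cx3, against 50.6 and 26.3 CPM in Pd1fl/fl, at -0.93 ± 0.37 (SE, edgeR adjusted p = 0.606). Without Pd1fl/fl replicate 1 it was -0.39. The zinc finger genes Zfp105 and Zkscan7 lie 37.4 kb apart by their 5′ ends and had opposite signs. Zfp105 had 23.6 and 13.5 CPM, against 29.7 and 33.996 CPM, while Zkscan7 had 8.07 and 8.85 CPM, against 5.66 and 2.22 CPM. Pomgnt2, a glycosyltransferase gene of dystroglycan that was chosen after its values were seen, had 41 and 94 counts, against 7 and 18 counts, at 2.42 ± 0.94 (SE, edgeR adjusted p = 0.606).

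**Figure D5:**
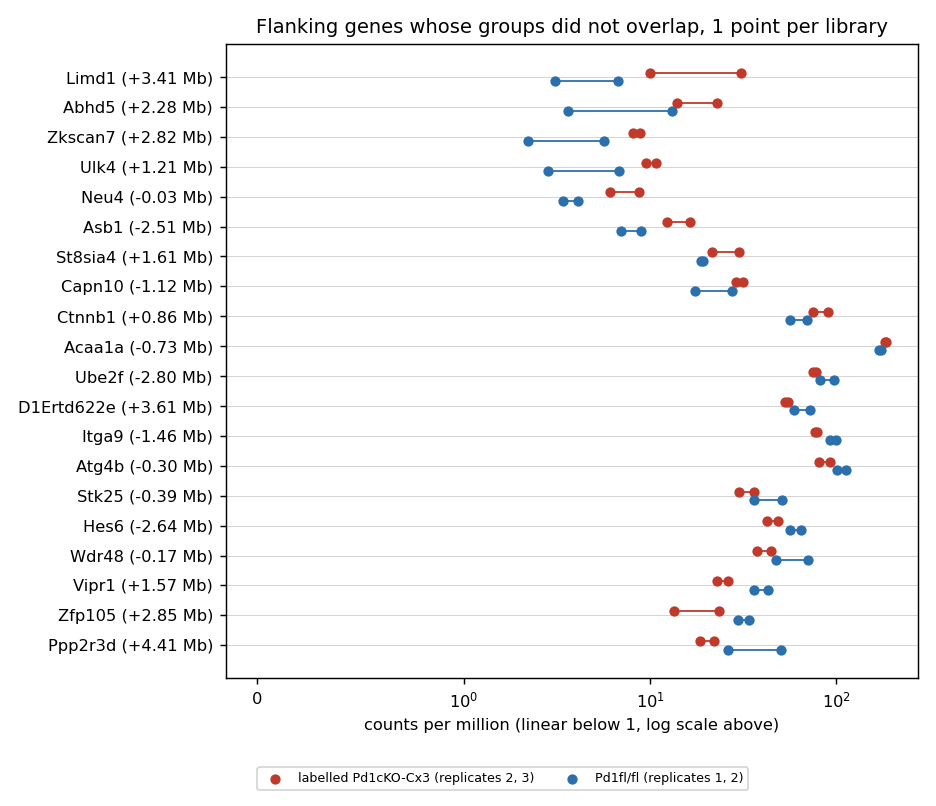
CPM in each library for the 20 flanking genes at a mean of at least 5 CPM that had the smallest p among those without overlap, 10 higher and 10 lower, ordered by fold change from Limd1 to Ppp2r3d. In Limd1 and Abhd5 the 2 libraries of a group lie far apart, while in Itga9 and Vipr1 they lie close together.

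The flanking genes left 9 that were too low to test, Gpc1, Gal3st2b, Pam, Dlec1, Ttc21a, Klhl40, Tgm4, Clec3b and Xcr1. All 113 had at least 1 count in some library, which listing in the deposited tables requires. Of all 113 genes, 42 share exon bases with another annotated gene, 10 of them over 20% of their exon bases, and single values of these genes are uncertain because it is not known whether counting used strand. Of the 6 genes called over the whole data set, Sp100 lies on the same chromosome as Pdcd1 but 8.40 Mb from it and outside the window. It had 148 and 163 CPM in libraries labelled Pd1cKO-Cx3, against 36.3 and 39.4 CPM in Pd1fl/fl (log2 fold change 2.03 ± 0.16, SE, edgeR adjusted p = 0.0466). Between Sp100 and Pdcd1, the flanking genes from 89 Mb on gave no call.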

How the data were processed

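The authors deposited 4 tables, each joining 1 library of each genotype label, so that each library stood in 2 tables, with 0 differences between its copies. The deposited count columns hold unscaled whole-number reads for each Ensembl ID, per the file headers. The deposited CPM columns are the same counts scaled to the library total, with 0.5 in place of 0, and served as a check of the totals. HTSeq 0.6.0, TopHat2 2.0.12, Bowtie2 2.2.3 and the build mm9 are listed without roles, per the submitters' processing notes, but 114 of the 115 flanking and targeted genes lay where GENCODE M21 places them on GRCm38, and coordinates are read as that build. Where neither table of a library lists a gene, its count was set to 0 (it can be at most 4), which applied to 0 of the flanking genes tested. The 4 emptied lines are not analysed here. A further microglial marker is not reported here. Totals ranged from 14258420 to 15908954 counts, and the mitochondrial share of counts was 1.48% and 1.60% in libraries labelled Pd1cKO-Cx3 and 1.23% and 1.02% in Pd1fl/fl.

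Counts were tested with edgeR 4.0.16 in R 4.3.3 (TMM factors, filterByExpr, quasi-likelihood test, Benjamini-Hochberg adjustment at 0.05) on 15097 genes, with DESeq2 1.42.0 as an alternative. Fold changes, also called log2 differences, are log2 of Pd1cKO-Cx3 over Pd1fl/fl. CPM values use the plain library total. Groups were called without overlap on CPM scaled with TMM factors. With 2 libraries a group, an exact permutation test cannot go below p = 0.333. Bounds and intervals cover counting error only. The script was tested on simulated data. Named genes were the targeted genes, the 4 nearest tested genes on each side, up to 10 genes per direction without overlap at 5 CPM or more with the smallest p, and the 3 genes of each role list with the highest mean CPM. Lists and members were chosen with earlier results of these data known.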

Additional observations from a re-analysis of the deposited data

How the results depend on the processing

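The count of flanking genes called was 0 under each alternative run. The count over all genes, 6, was 233 with DESeq2, 32 on all genes with any count, 32 at 5 CPM in 2 libraries and 4 to 21 without a library. Genes without overlap, 17 higher and 22 lower, numbered 34 to 43 higher and 31 to 38 lower without a library, where a group holds 1 library and overlap is less likely. There were 10 higher and 11 lower within 2 Mb, where fewer genes count. Either way, it was 46.7% of 15 genes within 0.5 Mb and 26.3% of 19 from 0.5 to 1 Mb. From 1 to 2 Mb it was 34.6% of 26 genes, against 40.1% of all genes tested. At 5 CPM in 2 libraries 11 were higher and 17 lower. Shares over all genes under that filter or without a library are not given here, so those counts only describe. The median absolute log2 fold change without a library was 0.30 to 0.39 around Pdcd1, 0.29 to 0.43 around Cx3cr1, 0.31 to 0.39 for protein-coding genes of other chromosomes and 0.37 to 0.46 for all genes. Around Cx3cr1 it lay above the other chromosomes without Pd1fl/fl replicate 2 (0.43 against 0.39), without replicate 2 of the label Pd1cKO-Cx3 (0.40 against 0.39) and without replicate 3 of that label (0.32 against 0.31), and below them without Pd1fl/fl replicate 1 (0.29 against 0.37). At 5 CPM in 2 libraries the median was 0.20 around Cx3cr1, 0.24 on the other chromosomes and 0.24 over all genes. With all counted genes it was 0.35 on the other chromosomes and 0.46 over all genes. The mean ratio between libraries, an alternative set chosen after seeing the data, was 0.35 to 0.40 across genotype labels without a library, and within a label it was 0.29 at 5 CPM in 2 libraries and 0.29 with a pseudocount of 2 CPM.

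Of 507 alternative fits of 51 named genes, 36 fits of 21 genes turned the sign. The cause was not tested. Leaving out 1 library moved the value of 40 of the 51 by over 1.5 times, 19 of them with no turn of sign in any fit. Across the fits without a library, log2 fold changes ranged from -0.0090 to 0.39 for Cops8, -1.81 to 0.85 for Col6a3, -0.16 to 0.11 for Lrrfip1, -0.28 to 0.87 for Kif1a, -0.067 to 0.21 for Ppp1r7, -0.23 to 0.073 for Hdlbp and -0.16 to 0.42 for Dtymk. They ranged from -0.30 to 0.067 for Ing5, -1.07 to 0.28 for D2hgdh, -0.21 to 0.47 for Fam174a, -0.10 to 0.81 for Tgfbr2, -0.089 to 0.28 for Golga4, -0.29 to 0.36 for Myd88 and -0.24 to 0.034 for Gorasp1. For the rest they were -0.24 to 0.55 for Csrnp1, -0.017 to 1.49 for Mobp, -0.50 to 0.44 for Trak1, -0.26 to 0.084 for Nktr, -0.13 to 0.12 for Zfp445, -0.38 to 0.19 for Lars2 and -0.11 to 0.27 for Fyco1. With other scalings Myd88 was at -0.0011 (RLE factors), -0.0199 (upper quartile), -0.0010 (DESeq2) and -0.0122 (5 CPM in 2 libraries), and Zfp445 at 0.0021 with library totals. No paired analysis was possible because the groups share only replicate number 2. Depth limits the genes under 5 CPM, such as Myrip and Sned1.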
